A study of Mus musculus with 27 samples.

Results

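Described here are 51 genes that act in DNA replication and mitosis, measured on Illumina MouseWG-6 BeadChips in WT and Mbd2-/- immune cells from models of colonic inflammation. The genes were selected by symbol from a list of 52 drawn up with earlier results of the same arrays known. One listed symbol, Cdk1, is not on the array, which carries the same gene under its older symbol Cdc2a, also on the list. The 51 genes have 107 probes, of 45281 probes and 30869 symbols on the array. Each gene is described by its probe with the highest mean level over the colon arrays. For 5 genes, Ttk, Bub1, Bub1b, Nek2 and Rrm2, no RefSeq transcript or chromosome is given for that probe. Because the list was drawn up with results in view, the counts and adjusted p-values below describe these genes and are not independent support for any pattern.

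All colon arrays came from mice given 2% dextran sulfate sodium (DSS) in their drinking water, an agent that injures the colon epithelium and causes colitis, for 6 days, so no array is of uninflamed colon. Monocytes (CD11b+Ly6C+), macrophages (CD11b+Ly6C-MHC-II+, positive for the macrophage antigen encoded by Adgre1) and type 1 conventional dendritic cells (cDC1s, CD11b-CD11c+CD103+, labelled CD11bnegDC) were sorted by flow cytometry from the CD45+Ly6G-Siglec-F- cells of the colon lamina propria. Monocytes were hybridised on 5 WT and 5 Mbd2-/- arrays, macrophages on 5 and 5, and cDC1s on 2 and 3. Splenic CD4+ T cells, taken 6 weeks after cell transfer in the T cell transfer model of colitis, were hybridised on 1 array per genotype. Their sample titles do not say whether the genotype is that of the donor or of the recipient mice. A replicate pooled cells of 1 to 5 mice according to the deposited record, and of 1 to 10 mice according to the methods. For the colon arrays, the mice labelled Mbd2KO are Mbd2-/- mice on a C57BL/6 background. They lack Mbd2, a reader of methylated DNA, in every cell type, so the genotype effect in 1 sorted population need not arise in that population. The single Mbd2 probe was not detected on any of the 27 arrays and does not check the labels.

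The sorted populations carried the markers of their labels, with limits that touch the genes below. The summed level of 9 cDC1 markers was 13.6 to 13.8 on the log2 scale in cDC1s and 10.1 to 11.1 in the other colon sorts, and that of 9 macrophage markers was 15.3 to 15.5 in macrophages, 14.2 to 14.5 in monocytes and 11.2 to 12.5 in cDC1s. The cDC1 sum includes Itgae, the gene of the sorting antigen CD103, at a mean of 13.0 in cDC1s. Xcr1, Batf3, Irf8, Clec9a, Zbtb46 and Tlr3 also had higher means in cDC1s than in the other colon sorts. Flt3 was detected on 2 of 5 cDC1 arrays and Cd8a on 1. The summed level of 5 monocyte markers was 13.6 to 14.2 in monocytes, 11.9 to 12.8 in macrophages and 12.7 to 13.2 in cDC1s. Ccr2, a defining receptor of inflammatory monocytes, was detected on 1 of 10 monocyte arrays. Ly6c1 was detected on every colon array, at a mean of 12.3 in monocytes, 8.80 in macrophages and 9.23 in cDC1s. Itgam, the gene of the sorting antigen CD11b, was detected on 9 of 10 monocyte arrays, 5 of 10 macrophage arrays and no cDC1 array. T cell markers differed between the cDC1 arrays, with summed levels of 11.49 and 9.42 on the WT arrays 23 and 26, and of 10.30, 11.30 and 8.84 on the Mbd2-/- arrays 27, 28 and 30, against 8.29 to 9.42 in the other colon sorts. Arrays 23 and 28 also had the highest sums of 4 mast cell markers, 9.75 and 9.71. Epithelial markers were present in every colon sort at similar sums, 12.1 to 14.1, with 10 of 12 detected on all arrays of each colon group. Mean raw intensity per array, the only measure of signal strength in the table, ranged from 172 to 353 over the colon arrays, and 16024 to 18608 probes per array were detected.

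A dividing cell copies its DNA once and then parts the copies. The licensing factors Cdc6 and Cdt1 load the Mcm helicase on replication origins, ribonucleotide reductase and thymidylate synthase supply the nucleotides, and cyclin B with the kinase Cdk1 drives entry into mitosis. The spindle then pulls the chromosomes apart by their centromeres under a checkpoint that holds back the anaphase promoting complex. Most of these genes are transcribed periodically: the replication genes through E2F sites around the start of S phase, and the mitotic genes later through a CHR element (TTTGAA) that often lies near CCAAT boxes. In the inflamed gut, monocytes and most macrophages are regarded as largely non-dividing, while dendritic cells arise from cycling precursors.

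RefSeq promoters of assembly GRCm38.p6, from 250 bases before to 50 after the gene's start, were found for 45 of the 51 genes, with no entry matched for Aurkb, Ccna2, Gmnn, Kif20a, Mcm4 and Tpx2. The letters TTTGAA, on either strand, lay in the promoters of 22 of the 45 genes (48.9%), against 20.2% of all 27025 genes with an entry. CCAAT, on either strand, lay in 34 of the 45 (75.6%), against 41.1% of all. An E2F word (TTTGGCGC, TTTCGCGC, TTTCCCGC or TTTGCCGC, either strand) lay in 8 of the 45 (17.8%), against 2.6% of all. The words were largely divided by role: 6 of the 9 replication licensing and fork genes with an entry held an E2F word and 1 held TTTGAA, while 5 of the 6 spindle genes held TTTGAA and none held an E2F word. The other genes with an E2F word were Cdk1 and Cenpm, of the cyclin and kinase group and the centromere group. None of the 4 nucleotide synthesis genes held either word. These matches describe letters only, and no binding was measured.

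The promoters of 6 genes are printed because their levels or genotype differences are described below, with motif letters in capitals. Top2a (chr11:99024140-99024439, minus strand) and Cdk1, the array's Cdc2a (chr10:69352863-69353162, minus strand), belong to the genes with the widest differences between cell types and hold both TTTGAA and CCAAT. Cdk1 also holds the E2F word TTTCGCGC. Mcm5 (chr8:75109259-75109558, plus strand) and Mcm6 (chr1:128359656-128359955, minus strand) are licensing genes with E2F words. Bub1b (chr2:118597961-118598260, plus strand) and Espl1 (chr15:102296043-102296342, plus strand) hold 1 TTTGAA and 1 CCAAT each.
Top2a: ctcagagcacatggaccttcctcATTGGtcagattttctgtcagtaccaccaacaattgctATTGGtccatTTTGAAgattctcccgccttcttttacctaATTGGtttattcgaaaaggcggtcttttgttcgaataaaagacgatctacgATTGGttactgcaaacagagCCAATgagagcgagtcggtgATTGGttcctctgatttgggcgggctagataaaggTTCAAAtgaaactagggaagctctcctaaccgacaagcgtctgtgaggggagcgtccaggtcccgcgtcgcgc
Cdk1: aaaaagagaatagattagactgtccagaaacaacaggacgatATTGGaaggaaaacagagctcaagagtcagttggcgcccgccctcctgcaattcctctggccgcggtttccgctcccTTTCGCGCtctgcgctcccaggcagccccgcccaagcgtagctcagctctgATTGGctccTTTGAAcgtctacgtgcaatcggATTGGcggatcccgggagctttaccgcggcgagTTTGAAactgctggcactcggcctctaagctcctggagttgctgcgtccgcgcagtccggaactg
Mcm5: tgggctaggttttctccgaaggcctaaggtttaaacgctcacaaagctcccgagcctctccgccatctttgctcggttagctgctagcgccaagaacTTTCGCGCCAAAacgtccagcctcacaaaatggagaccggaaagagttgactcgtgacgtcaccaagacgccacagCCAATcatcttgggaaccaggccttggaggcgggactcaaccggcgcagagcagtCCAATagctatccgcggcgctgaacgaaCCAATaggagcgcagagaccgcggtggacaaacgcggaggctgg
Mcm6: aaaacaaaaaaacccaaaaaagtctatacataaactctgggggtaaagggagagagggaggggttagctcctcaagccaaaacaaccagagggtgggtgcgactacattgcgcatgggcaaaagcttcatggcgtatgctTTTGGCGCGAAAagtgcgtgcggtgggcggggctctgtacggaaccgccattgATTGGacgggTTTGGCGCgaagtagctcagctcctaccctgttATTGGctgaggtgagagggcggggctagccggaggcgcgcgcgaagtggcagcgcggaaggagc
Bub1b: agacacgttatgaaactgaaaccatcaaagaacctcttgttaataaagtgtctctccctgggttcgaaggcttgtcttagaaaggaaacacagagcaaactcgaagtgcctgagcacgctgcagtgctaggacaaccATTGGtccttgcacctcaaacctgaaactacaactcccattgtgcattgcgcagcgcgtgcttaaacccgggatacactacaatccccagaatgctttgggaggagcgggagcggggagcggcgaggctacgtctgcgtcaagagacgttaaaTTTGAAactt
Espl1: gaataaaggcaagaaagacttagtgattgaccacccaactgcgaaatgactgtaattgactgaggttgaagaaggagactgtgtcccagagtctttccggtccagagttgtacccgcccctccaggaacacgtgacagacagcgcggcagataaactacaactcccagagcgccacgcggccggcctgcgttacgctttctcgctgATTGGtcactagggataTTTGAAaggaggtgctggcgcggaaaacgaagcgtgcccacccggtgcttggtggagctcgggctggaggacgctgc

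Of the 51 genes, 31 were detected on all 25 colon arrays, 15 on some of them and 5 on none. The 5 undetected were Ccnb2, a B-type cyclin, Bub1 and Nek2, mitotic kinases, Cenpe, a kinetochore motor, and Kif20a, a motor of the central spindle, and they enter no comparison. All levels below are log2 normalized intensities of 1 probe, so levels are compared between arrays and never between genes. In bulk samples, more dividing cells and more transcript per cell cannot be told apart.

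Across the colon sorts, cell cycle genes were lowest in monocytes, intermediate in macrophages and highest in cDC1s. After centring each of 45 genes on its mean, the median gene lay at -0.82 to -0.36 on the 10 monocyte arrays, at -0.09 to 0.35 on the 10 macrophage arrays and at 0.58 to 1.36 on the 5 cDC1 arrays, and the 3 ranges did not overlap. Against monocytes, 40 of the 45 genes tested were higher in cDC1s at an adjusted p under 0.05 and 1 was lower, where 23.2% of all 16233 genes tested, by 1 probe each, were higher and 21.1% lower. Against monocytes, 31 of 42 genes were higher in macrophages and 1 was lower, where the background was 21.0% and 15.5% of 13790. Against macrophages, 36 of 45 genes were higher in cDC1s and 2 were lower, where the background was 21.6% and 21.4% of 16738. The median log2 differences of the cell cycle genes tested were 1.87, 0.62 and 1.18 in these 3 comparisons, and the medians of all genes were -0.02, 0.02 and -0.02. These comparisons share arrays and average the genotypes equally.

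**Figure D1:**
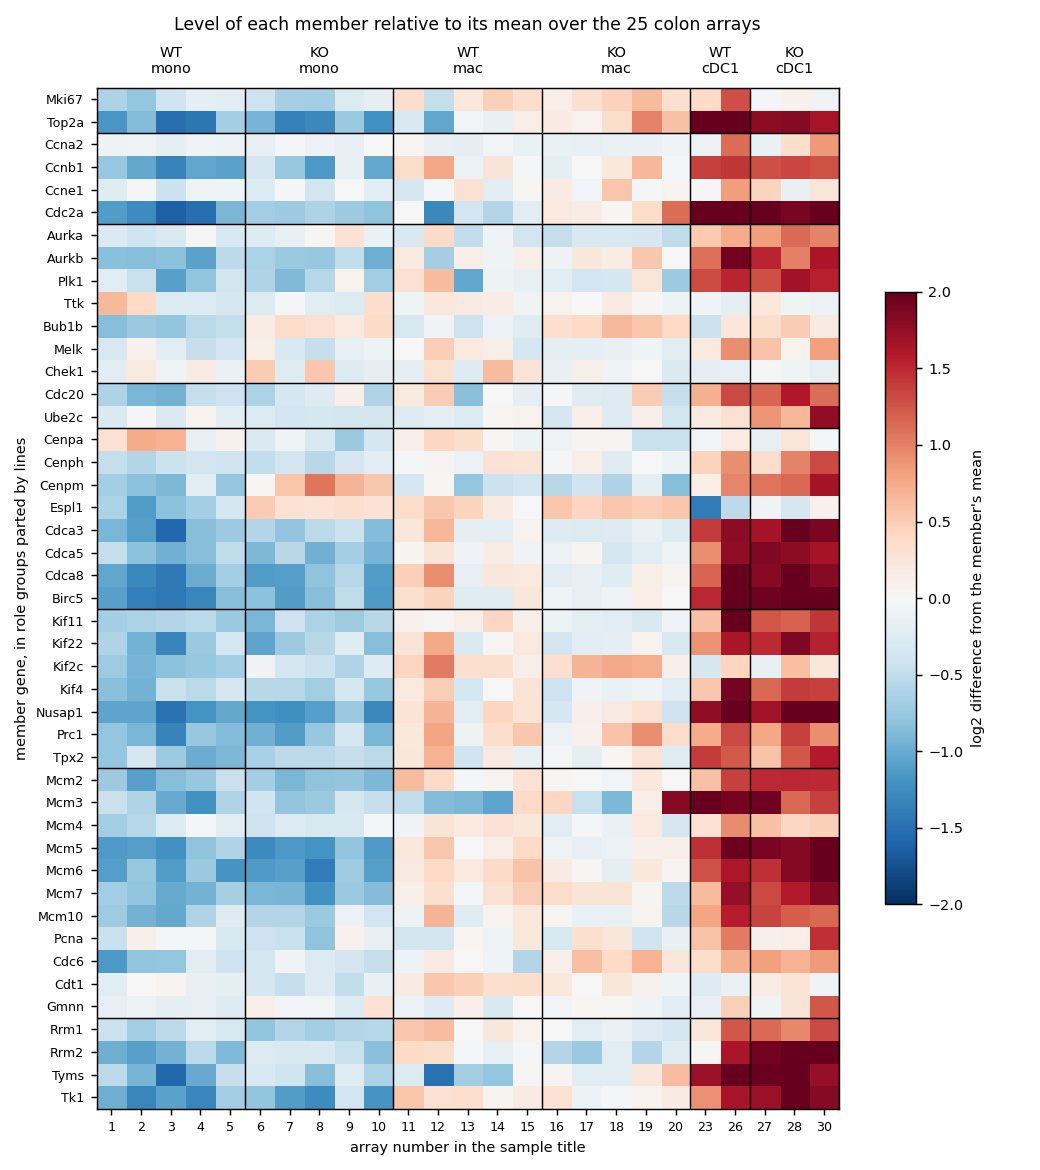
Log2 difference of each of 45 genes from its own mean, by array (columns, grouped by cell type and genotype, KO standing for Mbd2-/-) with genes in rows parted by role and colours that do not deepen past 2 in either direction. The 5 cDC1 columns at the right are the darkest red over most rows and the 10 monocyte columns at the left are mostly blue, while Cenpa, Ttk and Chek1 show no such order and Espl1 is blue in most cDC1 columns.

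The place of the arrays in the deposited table bears on this order. A BeadChip of this type holds 6 arrays, the chip is not named, and in successive blocks of 6 table columns monocytes and macrophages never share a block, so a chip effect and the difference between these 2 cell types cannot be told apart. Single cDC1 arrays do stand in column blocks with monocytes or with macrophages. Within the blocks that hold monocytes, the cDC1 array was higher than their mean for 37 and 43 of the 45 genes tested, by medians over the 45 of 1.21 and 2.09. Within the blocks that hold macrophages it was higher for 39 and 40 of 45, by medians of 1.15 and 1.24. These blocks are subsets of the arrays compared above, and the share of all genes that was higher within them was not counted. The lowest centred median among cDC1s, 0.58, was on array 23, the array with the highest T cell marker sum. On array 30, whose T cell marker sum lay within the range of the other colon sorts, it was 1.36, and on array 26, whose sum lay above that range by under 0.01, it was 1.33. On arrays 27 and 28, with T cell marker sums of 10.30 and 11.30, it was 1.15 and 1.18. The part of T cell transcripts in these levels was not tested.

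Top2a and Mki67 are widely used to mark proliferating cells, as topoisomerase II alpha untangles chromosomes before they separate and Ki-67 coats them in mitosis. The level of Top2a was 5.06, 5.37 and 5.88 (lowest, median and highest) on the 10 monocyte arrays and 5.52, 6.66 and 7.56 on the 10 macrophage arrays. On the cDC1 arrays Top2a was 8.95 and 9.36 in WT and 8.35, 8.39 and 8.20 in Mbd2-/-. All 5 cDC1 arrays lay above every other colon array, while the monocyte and macrophage ranges overlapped. Top2a was higher in cDC1s than in monocytes by 3.29 ± 0.18 (log2 difference ± standard error, adjusted p = 3.7e-13) and than in macrophages by 2.10 ± 0.18 (adjusted p = 1.2e-09). In macrophages it was higher than in monocytes by 1.19 ± 0.15 (adjusted p = 8.0e-07).

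Mki67 followed another pattern, as macrophages reached the level of cDC1s. Its level was 7.51, 7.88 and 8.11 in monocytes and 7.80, 8.63 and 8.92 in macrophages, and 8.66 and 9.57 in WT and 8.27, 8.37 and 8.22 in Mbd2-/- cDC1s. The Mbd2-/- cDC1 arrays lay within the range of macrophages. Mki67 was higher than in monocytes by 0.72 ± 0.12 in macrophages (adjusted p = 7.1e-05) and by 0.86 ± 0.16 in cDC1s (adjusted p = 7.1e-05), and the difference of cDC1s from macrophages was 0.14 ± 0.16 (adjusted p = 0.525). The difference between cDC1s and monocytes did not pass in the Mbd2-/- arrays alone (0.45) or with the arrays scaled to a common median (0.33).

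**Figure D2:**
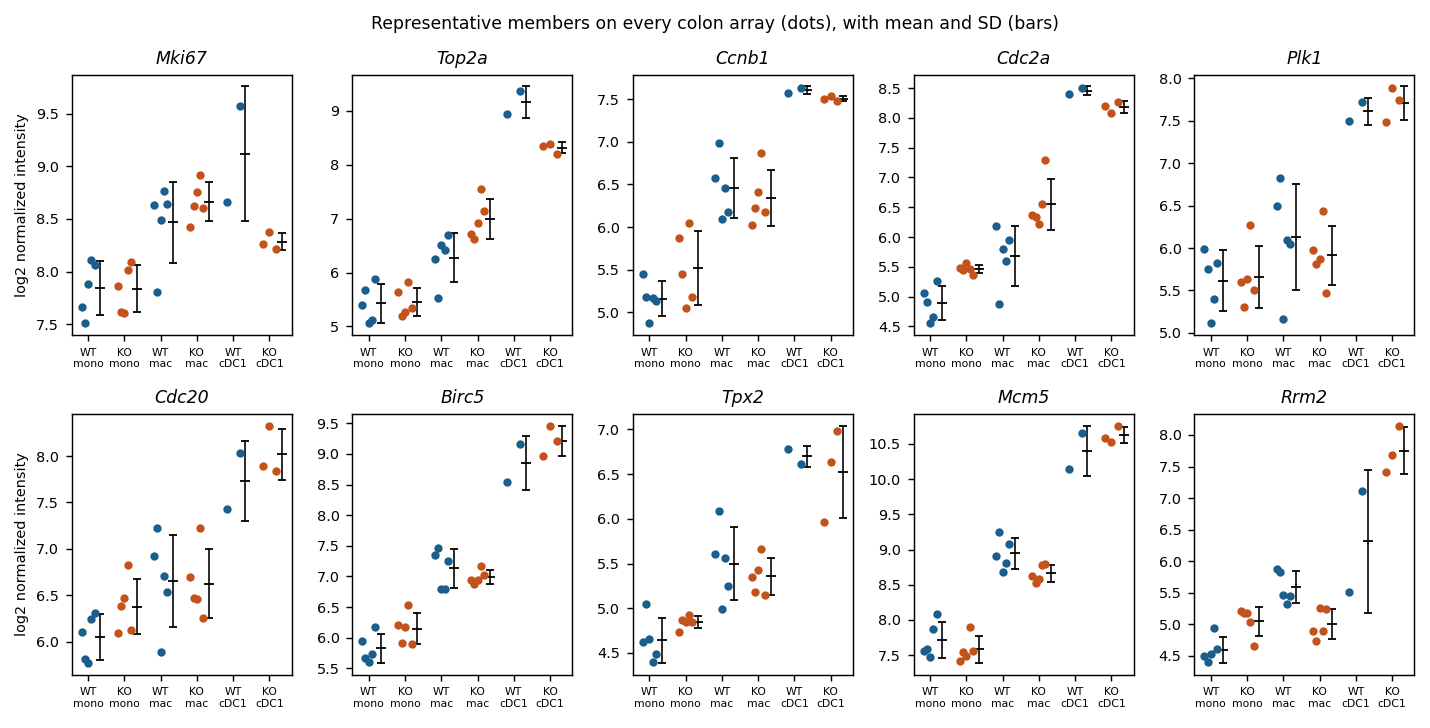
Log2 normalized intensity of 10 genes on each colon array (dots, WT in blue and Mbd2-/- in orange, KO on the axis), with mean and SD of each group as bars. For Ccnb1, Cdc2a, Birc5 and Mcm5 the 5 cDC1 arrays lie above all others, while for Mki67 they overlap with macrophages.

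Among the cyclins and their kinase, Cdc2a and Ccnb1, which together form the mitosis-promoting kinase, were lowest in monocytes and highest in cDC1s. Cdc2a was 4.55, 5.31 and 5.56 in monocytes, 4.88, 6.20 and 7.29 in macrophages, and 8.41, 8.51, 8.20, 8.08 and 8.27 on the cDC1 arrays 23, 26, 27, 28 and 30. Ccnb1 was 4.87, 5.18 and 6.05 in monocytes, 6.02, 6.31 and 6.98 in macrophages and 7.58, 7.64, 7.50, 7.54 and 7.48 on the same cDC1 arrays. For both genes the cDC1 arrays stood above all others and the other 2 sorts overlapped, for Ccnb1 by 1 monocyte array. Cdc2a was higher in cDC1s than in monocytes by 3.14 ± 0.18 (adjusted p = 4.7e-13) and than in macrophages by 2.20 ± 0.18 (adjusted p = 3.2e-10). Ccnb1 was higher in macrophages than in monocytes by 1.06 ± 0.13 (adjusted p = 1.2e-06). Ccna2, the S and G2 phase cyclin, was detected on none of the 20 monocyte and macrophage arrays and on 3 of 5 cDC1 arrays, at least 1.14-fold higher than in monocytes (adjusted p = 0.0037) and at least 1.18-fold higher than in macrophages (adjusted p = 0.0033). Such a bound sets the mean of the brighter group against, on each dim array, the higher of the probe's own level and the lowest level among detected probes. Ccne1, the G1 to S cyclin, differed by 0.48 between cDC1s and monocytes and passed there only.

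Not all mitotic and checkpoint kinases followed the order. Against monocytes, 5 of 7 tested were higher in cDC1s and 2 of 7 in macrophages, where 23.2% and 21.0% of all genes were. Aurkb, the kinase of the chromosomal passenger complex, was 5.44, 5.73 and 6.02 in monocytes, 5.83, 6.63 and 7.06 in macrophages and 7.62, 8.44, 8.03, 7.52 and 8.15 in cDC1s. It was higher in cDC1s than in monocytes by 2.22 ± 0.15 (adjusted p = 2.6e-11), with no overlap, and in macrophages than in monocytes by 0.82 ± 0.12 (adjusted p = 1.6e-05), with overlap. Plk1, which acts in mitotic entry and spindle assembly, was 5.11, 5.62 and 6.27 in monocytes, 5.16, 6.01 and 6.83 in macrophages and 7.50, 7.72, 7.49, 7.88 and 7.75 in cDC1s. All cDC1 arrays lay above the rest (2.02 ± 0.21 over monocytes, adjusted p = 3.5e-08), and the difference between macrophages and monocytes did not pass (0.38 ± 0.17, adjusted p = 0.0932). Aurka, the centrosomal kinase, was higher in cDC1s than in macrophages by 1.09 ± 0.12 (adjusted p = 5.8e-08) and differed between macrophages and monocytes by -0.13 ± 0.10 (adjusted p = 0.324). Ttk and Chek1, detected on at most 6 arrays of any sort, passed in none of the 3 comparisons.

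Cdc20 and Ube2c hand substrates to the anaphase promoting complex and supply it with ubiquitin. Cdc20 was 5.77, 6.18 and 6.82 in monocytes, 5.89, 6.61 and 7.23 in macrophages, and 7.43, 8.03, 7.89, 8.33 and 7.84 on the 5 cDC1 arrays, all above the other sorts. It was higher in cDC1s than in monocytes by 1.66 ± 0.19 (adjusted p = 1.1e-07) and than in macrophages by 1.24 ± 0.19 (adjusted p = 9.9e-06). Its difference between macrophages and monocytes, 0.43 ± 0.15 (adjusted p = 0.0327), no longer passed without 1 of the arrays 2, 3, 6, 10, 11, 12, 14, 16 or 19 (0.35 to 0.42). Nor did it pass with the column blocks as a random block (0.42, adjusted p = 0.0517) or in the Mbd2-/- arrays alone (0.25, adjusted p = 0.446). Ube2c was detected on no monocyte array, on 4 macrophage arrays and on all 5 cDC1 arrays, at least 1.63-fold higher in cDC1s than in monocytes (adjusted p = 4.1e-06).

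The centromere, cohesion and chromosomal passenger genes held both large differences and exceptions to the order. Birc5 (survivin), Cdca8 (borealin) and Aurkb belong to the chromosomal passenger complex, which corrects faulty attachments of chromosomes to the spindle. Birc5 was 5.61, 5.93 and 6.53 in monocytes, 6.79, 6.98 and 7.47 in macrophages and 8.53, 9.16, 8.97, 9.46 and 9.21 in cDC1s, and the 3 sorts did not overlap. It was higher in cDC1s than in monocytes by 3.04 ± 0.14 (adjusted p = 1.2e-14), than in macrophages by 1.97 ± 0.14 (adjusted p = 3.4e-11), and in macrophages than in monocytes by 1.08 ± 0.11 (adjusted p = 6.3e-08). Cenph, a kinetochore subunit, was not detected on any monocyte array and was at least 2.08-fold higher in cDC1s (adjusted p = 1.0e-08) and at least 1.21-fold higher in macrophages (adjusted p = 0.00072) than in monocytes.

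Espl1 and Cenpa stood apart from the others of this group. Espl1 encodes separase, the protease that cuts cohesin at anaphase. Its level was 6.04, 7.11 and 7.66 in monocytes, 7.15, 7.62 and 7.70 in macrophages, and 5.75 and 6.63 in WT and 7.06, 6.79 and 7.23 in Mbd2-/- cDC1s. Array 23 was the lowest of all colon arrays. Espl1 was lower in cDC1s than in macrophages by 0.95 on the log2 scale (-0.95 ± 0.13, adjusted p = 1.4e-06). Against monocytes the difference was -0.35 ± 0.13 (adjusted p = 0.0295), and it did not pass without array 5 (-0.30), 23 (-0.13) or 28 (-0.29). Cenpa, the histone variant that marks centromeres, ranged over 10.09 to 11.58 in monocytes, 10.39 to 11.25 in macrophages and 10.70 to 11.08 in cDC1s, and passed in none of the 3 comparisons. Cenpm, a centromere subunit, was lower in macrophages than in monocytes by the average over genotypes (-0.40 ± 0.14, adjusted p = 0.0283). This sign held in the Mbd2-/- arrays and turned in the WT arrays (0.30), and the difference did not pass without array 4 (-0.34), 8 (-0.34), 13 (-0.35) or 20 (-0.36).

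All 7 spindle motors and microtubule factors tested were higher than monocytes in both macrophages and cDC1s, by 0.57 to 1.27 and by 0.70 to 3.16, where 21.0% and 23.2% of all genes were higher. Nusap1, which bundles spindle microtubules around chromosomes, had the largest difference of the group in each comparison. It was 5.37, 5.71 and 6.10 in monocytes, 6.43, 7.08 and 7.53 in macrophages and 8.62, 9.20, 8.53, 9.03 and 8.95 in cDC1s, with no overlap between sorts. Nusap1 was higher than in monocytes by 3.16 ± 0.15 in cDC1s (adjusted p = 2.4e-14) and by 1.27 ± 0.12 in macrophages (adjusted p = 1.6e-08), and higher in cDC1s than in macrophages by 1.89 ± 0.15 (adjusted p = 2.7e-10). Tpx2, which nucleates spindle microtubules and activates Aurora A, was 4.40, 4.79 and 5.05 in monocytes, 5.00, 5.39 and 6.08 in macrophages and 6.78, 6.62, 5.96, 6.63 and 6.98 in cDC1s. Neighbouring sorts overlapped, as array 27 lay below the highest macrophage array. Kif2c, a microtubule depolymerase, was the only spindle gene not higher in cDC1s than in macrophages (-0.35 ± 0.15, adjusted p = 0.0736).

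Replication genes followed the same order as the mitotic genes. Of the 11 licensing and fork genes tested, 10 were higher in cDC1s than in monocytes, and 8 of 10 were higher in macrophages than in monocytes, where 23.2% and 21.0% of all genes were. Mcm5, a subunit of the replicative helicase whose promoter with E2F words is printed above, was 7.42, 7.56 and 8.09 in monocytes, 8.53, 8.79 and 9.25 in macrophages and 10.15, 10.66, 10.59, 10.53 and 10.75 in cDC1s. No arrays of different sorts overlapped. Mcm5 was higher in cDC1s than in monocytes by 2.86 ± 0.12 (adjusted p = 1.2e-15) and than in macrophages by 1.71 ± 0.12 (adjusted p = 1.5e-11). Mcm6, also of the helicase, was higher in macrophages than in monocytes by 1.23 ± 0.10 (adjusted p = 6.6e-10), likewise without overlap. Cdt1, which loads the helicase and is degraded once S phase begins, differed: it was higher in macrophages than in monocytes by 0.45 ± 0.07 (adjusted p = 1.1e-05) and lower in cDC1s than in macrophages (-0.27 ± 0.08, adjusted p = 0.0115). The latter did not pass without array 23 (-0.24), and its sign turned in the Mbd2-/- arrays alone (0.032). Gmnn, which encodes the Cdt1 inhibitor geminin, was detected on no macrophage array and on 3 of 5 cDC1 arrays, at least 1.21-fold higher (adjusted p = 0.035).

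The 4 nucleotide synthesis genes were all higher in cDC1s than in either other sort, where 23.2% of all genes were higher than in monocytes and 21.6% than in macrophages. Tk1, the thymidine salvage kinase, was 5.74, 5.95 and 6.66 in monocytes, 6.95, 7.21 and 7.60 in macrophages and 7.96, 8.69, 8.78, 9.21 and 8.87 in cDC1s, 3 separate ranges. It was higher than in monocytes by 2.60 ± 0.15 in cDC1s (adjusted p = 4.7e-13) and by 1.19 ± 0.12 in macrophages (adjusted p = 2.8e-08). Tyms, thymidylate synthase, was higher in cDC1s than in macrophages by 2.21 ± 0.21 (adjusted p = 5.5e-09), and its difference between macrophages and monocytes did not pass (0.42 ± 0.17, adjusted p = 0.0569). Rrm2, the inducible subunit of ribonucleotide reductase, was 4.40, 4.80 and 5.21 in monocytes, 4.74, 5.28 and 5.88 in macrophages, and 5.51 and 7.12 in WT and 7.42, 7.68 and 8.15 in Mbd2-/- cDC1s. Array 23 fell within the macrophage range and the other 4 lay above it. Rrm2 was higher in cDC1s than in monocytes by 2.21 ± 0.19 (adjusted p = 7.8e-10), and by 0.47 ± 0.15 in macrophages (adjusted p = 0.0164), a difference that was -0.043 in the Mbd2-/- arrays alone.

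**Figure D3:**
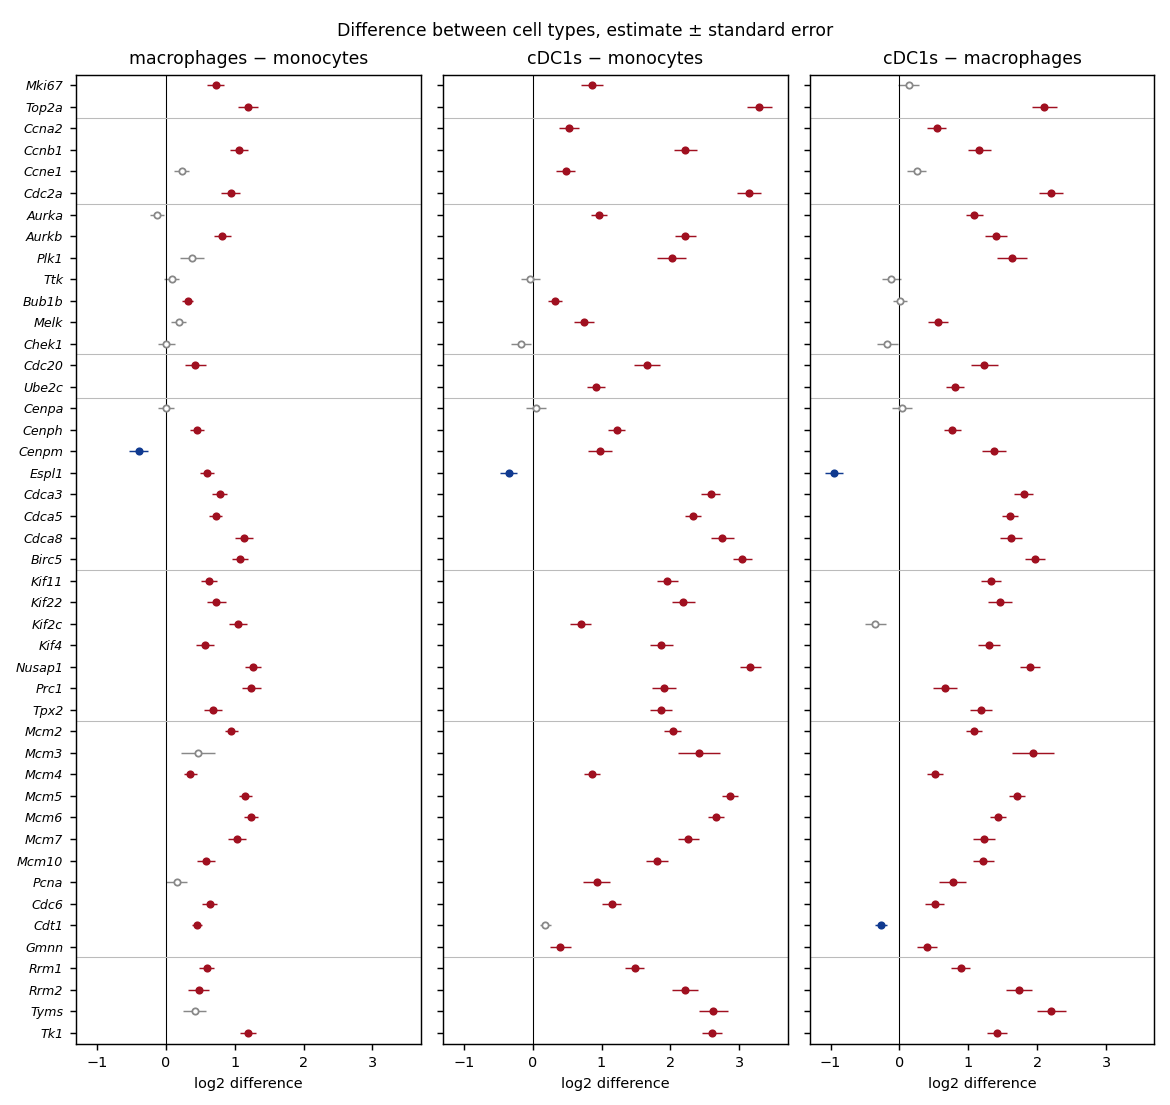
Log2 difference between cell types for each gene tested, up to 45 in a panel (dots, estimate over both genotypes, with standard error as lines), red where higher and blue where lower at an adjusted p under 0.05 and open grey where not passed. In the panel of cDC1s against monocytes 40 dots are red, up to 3.29 for Top2a, and Espl1 is the only blue dot.

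Other genes of the cycle are read against the same shares of all genes, 23.2% higher and 21.1% lower in cDC1s and 21.0% and 15.5% in macrophages than in monocytes. Of 18 further mitosis genes tested, all 18 were higher in cDC1s than in monocytes, led by Stmn1, a microtubule destabiliser (3.17 ± 0.19, adjusted p = 1.1e-12), and 14 of 17 were higher in macrophages. Of 21 further replication genes, 19 were higher in cDC1s than in monocytes, among them Lig1, the ligase that joins Okazaki fragments (2.10 ± 0.11, adjusted p = 1.4e-13). All 7 G1 cyclins, kinases and phosphatases tested were higher in cDC1s than in monocytes, including Ccnd1, cyclin D1 (2.22 ± 0.19, adjusted p = 6.6e-10). Ccnd3 was lower in macrophages than in monocytes (-1.06 ± 0.09, adjusted p = 4.5e-09). Of 11 E2F, Myb and Foxm1 factors, 6 were higher in cDC1s than in monocytes and none lower. These included Mybl2 (1.41 ± 0.12, adjusted p = 6.2e-10) and Foxm1 (1.36 ± 0.15, adjusted p = 8.5e-08), activators of mitotic genes.

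Of 14 inhibitors and pocket proteins, which restrain the cycle, tested in cDC1s against monocytes, 2 were higher and 5 lower, where 23.2% and 21.1% of all genes were. Cdkn1a, the p21 inhibitor, was lower in cDC1s than in monocytes (-2.28 ± 0.10, adjusted p = 4.4e-15) and than in macrophages (-2.13 ± 0.10, adjusted p = 1.6e-14). Ccng2 (-1.41 ± 0.13, adjusted p = 6.0e-09) and Gadd45a (-2.02 ± 0.22, adjusted p = 4.3e-08), both linked to growth arrest, were also lower than in monocytes, whereas Cdkn2c, an inhibitor of the G1 kinases, was higher (1.43 ± 0.16, adjusted p = 7.6e-08). In macrophages against monocytes, 3 of 13 were higher and 5 lower, where 21.0% and 15.5% of all genes were, with Cdkn2d the lowest (-1.76 ± 0.16, adjusted p = 1.1e-08).

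The genotype comparisons asked whether cells of Mbd2-/- mice differed from WT cells of the same sort, and few cell cycle genes did. In monocytes 3 of 37 genes tested were higher in Mbd2-/- and 1 was lower, where 0.902% and 1.13% of all 11978 genes tested were. In macrophages 4 of 41 were higher and none lower, where 2.94% and 3.36% of 12506 were. In cDC1s 3 of 43 were higher and 1 was lower, where 4.02% and 3.38% of 12948 were. At an unadjusted p under 0.05, 10 of 37, 14 of 41 and 11 of 43 genes differed in these 3 sorts, where 15.3%, 23.9% and 24.5% of all genes tested did. With the arrays scaled to a common median, the calls were 1 higher in monocytes, and 2 lower and none higher in cDC1s. The medians over the cell cycle genes tested were 0.11, -0.15 and 0.20, and those over all genes -0.03, -0.08 and 0.05. The 3 higher in monocytes were Bub1b, Espl1 and Cenpm, the 4 higher in macrophages were Bub1b, Cdc2a, Top2a and Cdc6, and the 3 higher in cDC1s were Rrm2, Ube2c and Espl1.

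Bub1b, which encodes BubR1 of the spindle assembly checkpoint, was higher in Mbd2-/- monocytes and macrophages. Its level on WT monocyte arrays was 7.37, 7.47, 7.43, 7.68 and 7.74, and on Mbd2-/- arrays it was 8.37, 8.58, 8.52, 8.41 and 8.60. On macrophage arrays it was 7.89, 8.14, 7.81, 8.10 and 7.97 in WT and 8.56, 8.61, 8.87, 8.77 and 8.61 in Mbd2-/-. In both sorts every Mbd2-/- array lay above every WT array on this probe, for which no RefSeq transcript is given. The difference was 0.96 ± 0.11 in monocytes (adjusted p = 3.0e-05) and 0.70 ± 0.11 in macrophages (adjusted p = 0.00102). It was 1.08 and 0.78 in the 2 column blocks of monocytes and 0.74 and 0.65 in those of macrophages, which each hold both genotypes. Within single blocks it did not pass in the second of monocytes (adjusted p = 0.247) or in either of macrophages (adjusted p = 0.181 and 0.345).

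In cDC1s, Bub1b was 7.79 and 8.45 in WT and 8.57, 8.72 and 8.40 in Mbd2-/-, with overlap, and the difference of 0.44 ± 0.16 did not pass (adjusted p = 0.0905). The test of a difference between cell types did not pass either (macrophages less monocytes -0.25 ± 0.16, adjusted p = 0.757). A second Bub1b probe gave 0.94 in monocytes (adjusted p = 0.000469), 0.58 in macrophages (adjusted p = 0.0150) and 0.39 in cDC1s (adjusted p = 0.218). With arrays scaled to a common median, the difference of the first probe was 0.66 in monocytes and 0.63 in macrophages and passed in neither.

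Espl1 was higher in Mbd2-/- monocytes and cDC1s. In monocytes it was 6.52, 6.04, 6.33, 6.47 and 6.80 in WT and 7.66, 7.44, 7.42, 7.47 and 7.43 in Mbd2-/-, which did not overlap (1.06 ± 0.14, adjusted p = 0.000286). The difference was 1.16 and 0.87 within the column blocks and did not pass in the second (adjusted p = 0.275). In cDC1s it was 5.75 and 6.63 in WT and 7.06, 6.79 and 7.23 in Mbd2-/-, again without overlap (0.84 ± 0.21, adjusted p = 0.0185), but without array 23 the difference was 0.40 (adjusted p = 0.369) and without array 30 it was 0.74 (adjusted p = 0.0722). In macrophages it was 7.52, 7.69, 7.60, 7.33 and 7.15 in WT and 7.70, 7.58, 7.70, 7.64 and 7.70 in Mbd2-/-, which overlapped (0.21 ± 0.14, adjusted p = 0.390). With median scaling Espl1 gave 0.81 in monocytes and 0.17 in cDC1s and did not pass.

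Cenpm was higher in Mbd2-/- monocytes on all 3 of its probes. The probe with the highest level gave 4.76, 4.63, 4.54, 5.24 and 4.68 in WT, where 2 of the 5 arrays were below detection, and 5.48, 6.00, 6.52, 6.14 and 5.99 in Mbd2-/-. The groups did not overlap (1.25 ± 0.20, adjusted p = 0.000938), and the other 2 probes gave 1.02 (adjusted p = 0.00501) and 1.16 (adjusted p = 0.00265). The difference was 1.42 and 1.04 within the column blocks and did not pass in the second (adjusted p = 0.421). In macrophages it was -0.14 ± 0.20 (adjusted p = 0.683) and in cDC1s 0.73 ± 0.28 (adjusted p = 0.109). The difference between the genotype effects of macrophages and monocytes, -1.40 ± 0.28, had an adjusted p of 0.100.

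Cenpa was the only cell cycle gene lower in Mbd2-/- monocytes. It was 11.14, 11.58, 11.53, 10.67 and 10.92 in WT and 10.54, 10.76, 10.54, 10.09 and 10.50 in Mbd2-/-, with 1 WT array within the Mbd2-/- range (-0.68 ± 0.17, adjusted p = 0.0296). The difference was -1.12 in the column block of arrays 1, 2, 3, 9 and 10 and -0.19 in that of arrays 4 to 8, and passed within neither. It did not pass without array 1, 2, 3, 6, 8, 9 or 10 (-0.70 to -0.58).

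In macrophages, Cdc2a was 6.19, 4.88, 5.79, 5.59 and 5.95 in WT and 6.38, 6.33, 6.22, 6.55 and 7.29 in Mbd2-/-, without overlap (0.87 ± 0.20, adjusted p = 0.0150). It was 1.30 and 0.53 within the column blocks, passing in neither, and 0.69 without array 20 (adjusted p = 0.0508). Top2a was 6.25, 5.52, 6.50, 6.41 and 6.70 in WT and 6.72, 6.62, 6.92, 7.56 and 7.14 in Mbd2-/-, where 1 Mbd2-/- array fell below the highest WT array (0.72 ± 0.21, adjusted p = 0.0410). It was 1.26 and 0.20 within the column blocks, passing in neither, and did not pass without array 11 (0.71), 12 (0.52), 14 (0.75), 18 (0.73), 19 (0.57) or 20 (0.68). Cdc6 was 6.15, 6.43, 6.25, 6.18 and 5.67 in WT and 6.36, 6.86, 6.65, 6.94 and 6.48 in Mbd2-/-, with 1 array overlapping (0.52 ± 0.16, adjusted p = 0.0495). It did not pass without array 11, 12, 13, 14, 15, 17, 18, 19 or 20 (0.41 to 0.59). The other 37 of the 41 genes did not pass.

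**Figure D4:**
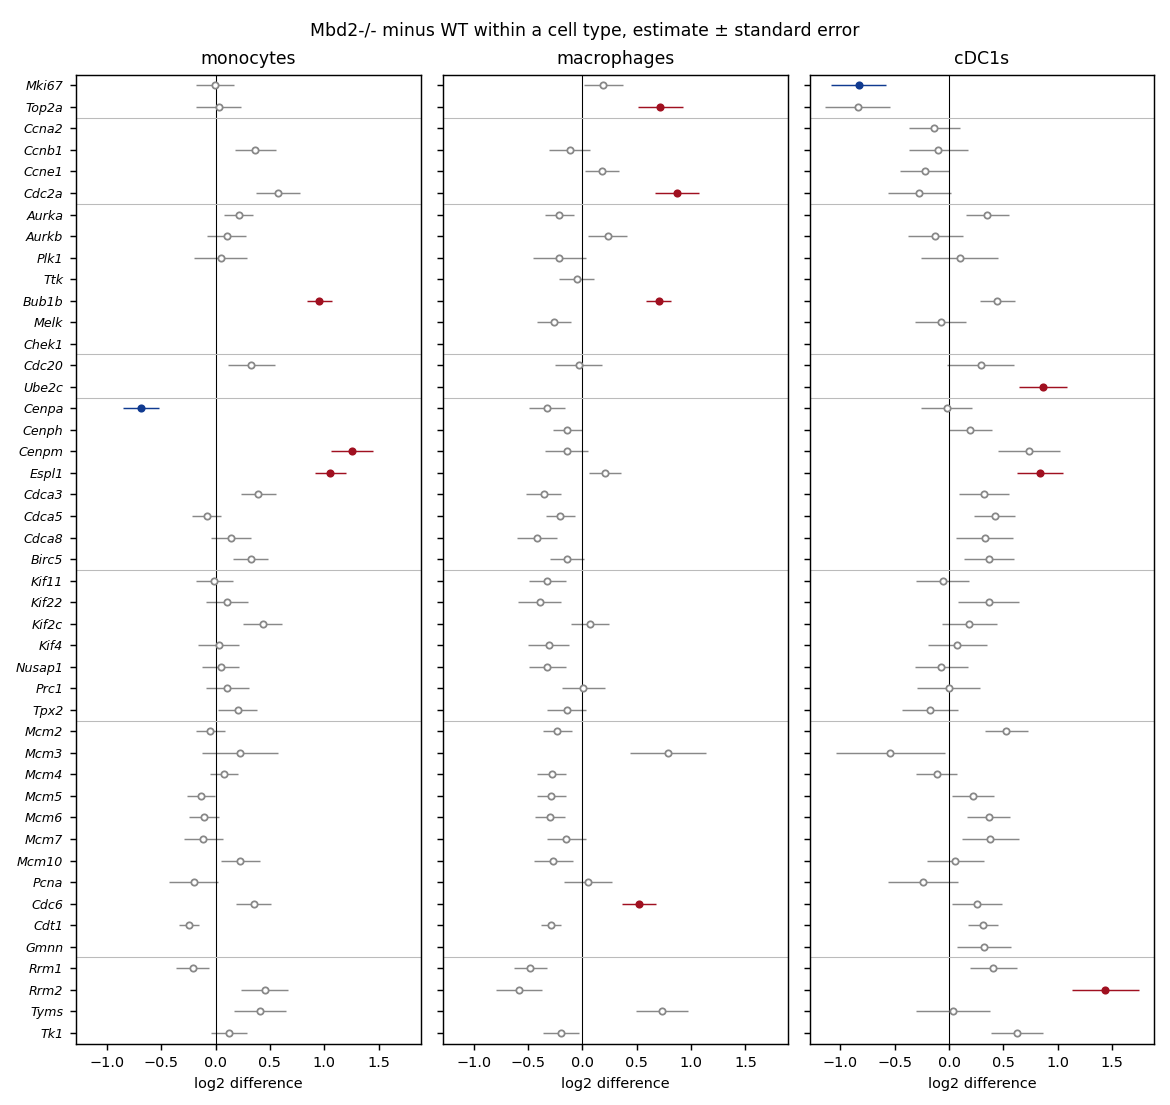
Log2 difference between Mbd2-/- and WT within each cell type (dots, with standard error as lines), red where higher and blue where lower in Mbd2-/- at an adjusted p under 0.05 and open grey where not passed, with no dot where the gene was not tested. Bub1b passes in monocytes and macrophages, Espl1 in monocytes and cDC1s, and most other dots are grey.

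In cDC1s, Rrm2, on a probe with no RefSeq transcript given, was 5.51 and 7.12 in WT and 7.42, 7.68 and 8.15 in Mbd2-/-. The difference was 1.44 ± 0.31 (adjusted p = 0.00869), without overlap. Without array 23 it was 0.64 (adjusted p = 0.247), and a second Rrm2 probe gave 0.36 (adjusted p = 0.519). Ube2c was 4.75 and 4.87 in WT and 5.45, 5.23 and 6.34 in Mbd2-/-, also without overlap (0.86 ± 0.22, adjusted p = 0.0203), and it did not pass without array 23 (0.81) or 30 (0.54). Mki67 was 8.66 and 9.57 in WT and 8.27, 8.37 and 8.22 in Mbd2-/-, lower in every Mbd2-/- array (-0.83 ± 0.26, adjusted p = 0.0485). It did not pass without array 26 (-0.38), 27 (-0.82), 28 (-0.88) or 30 (-0.80), or with the column blocks as a random block (adjusted p = 0.0514), and a second probe gave -0.21 (adjusted p = 0.609). The balance of calls in cDC1s turned with the WT array left out: without array 26, 12 genes passed, all higher in Mbd2-/-, and without array 23, 3 passed, all lower. Without array 30, 1 gene passed. Mean raw intensity was 265 and 292 on the WT and 172 to 228 on the Mbd2-/- cDC1 arrays, and the WT arrays stand in column blocks with monocytes and the Mbd2-/- arrays in others, so that neither can be told apart from genotype here.

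The genotype effects differed between cDC1s and macrophages for 6 of 45 genes, 4 in the higher and 2 in the lower direction, where 3.45% and 2.96% of all 16738 genes tested did. Rrm2 (2.02 ± 0.37, adjusted p = 0.00624), Rrm1, the large subunit of the same enzyme (0.89 ± 0.27, adjusted p = 0.0464), Ube2c (0.89 ± 0.27, adjusted p = 0.0477) and Cdt1 (0.60 ± 0.17, adjusted p = 0.0350) had the more positive effect in cDC1s. Top2a (-1.56 ± 0.36, adjusted p = 0.0180) and Mki67 (-1.03 ± 0.31, adjusted p = 0.0479) had the more negative one. In macrophages Rrm2 was 5.88, 5.83, 5.46, 5.31 and 5.46 in WT and 4.89, 4.74, 5.25, 4.89 and 5.25 in Mbd2-/-, lower in every Mbd2-/- array, though that difference itself did not pass (-0.58, adjusted p = 0.0950). With median scaling the calls were 2 in the lower direction and with cyclic loess 1 in each. The count of 6 was 2 without array 12, 19, 20 or 23, 3 without array 28 or 30, and 13 without array 26. No cell cycle gene differed between cDC1s and monocytes by limma, where 0.567% and 0.339% of all 16233 genes tested did in the higher and lower direction, or between macrophages and monocytes, where 0.0145% of 13790 did in each direction. At an unadjusted p under 0.05, 11 of 45 and 8 of 42 genes differed, where 16.4% and 7.54% of all genes did.

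Summed levels of several of the 12 marker lists examined also lay higher or lower in Mbd2-/- arrays, in part with overlap, and none was tested. Monocytes of WT mice had a summed level of 8 neutrophil and precursor markers of 11.4 to 12.9 and those of Mbd2-/- mice one of 12.6 to 13.0. The sums of WT and then Mbd2-/- arrays were 9.35 to 10.8 and 10.4 to 12.3 in macrophages, and 9.26 to 9.39 and 10.0 to 11.3 in cDC1s, with 4 to 8 of the 8 detected in a group. In monocytes the sum of 7 B and plasma cell markers did not overlap, at 9.41 to 9.70 in WT and 8.96 to 9.32 in Mbd2-/-, and no sum separated the genotypes in macrophages. In cDC1s, with 2 and 3 arrays, the sums of 6 lists did not overlap. Besides the neutrophil list, those of monocytes (12.7 in WT and 12.9 to 13.2 in Mbd2-/-), macrophages (11.2 to 11.3 and 11.5 to 12.5), B and plasma cells (7.67 to 7.71 and 7.78 to 8.10) and eosinophils (6.72 to 6.89 and 7.10 to 7.32) were higher in Mbd2-/-, and that of plasmacytoid DCs (9.04 to 9.06 and 8.48 to 8.70) was lower. Of 5 eosinophil markers, 2 were detected in each genotype of cDC1s, none of them on both WT arrays. With so few arrays, sums can part without a true difference, and no share of all genes is set beside the count of 6. The part of these lists in the differences above was not tested. Among the wider pathway lists, no gene passed for genotype in monocytes. In macrophages E2f5, a repressive E2F (-0.55 ± 0.11, adjusted p = 0.00492), and Dut, which removes dUTP (-0.56 ± 0.15, adjusted p = 0.0322), were lower and Gadd45a was higher (0.84 ± 0.25, adjusted p = 0.0426). In cDC1s E2f5 was lower (-0.50 ± 0.15, adjusted p = 0.0475) and Ung, the uracil DNA glycosylase, was higher (0.84 ± 0.24, adjusted p = 0.0335). Of all genes tested, 2.94% were higher and 3.36% lower in Mbd2-/- macrophages, and 4.02% and 3.38% in Mbd2-/- cDC1s. Whether the wider lists depart from these shares was not tested.

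The splenic T cells, with 1 array per genotype, allow no test, and their levels come from a normalization of all 27 arrays. Both T cell arrays lay above every monocyte array for 38 of 45 genes and below every one for none, where 28.6% of all genes were above and 26.8% below. Against macrophages 38 of 45 were above every array and 2 below, where 24.8% of all were above and 25.9% below, and against cDC1s 19 of 44 were above and 1 below, where 27.1% were above and 25.6% below. Mcm5 was 11.06 in WT and 10.66 in Mbd2-/- T cells. Birc5 was 9.90 and 9.72, and Cdc20 was 9.51 and 8.66, while Top2a was 9.53 and 9.45. These values lay above the highest cDC1 array of the same normalization, except Mcm5 on the Mbd2-/- array, which lay within the cDC1 range. Between the genotypes, none of 45 genes differed by a log2 value of 1 or more, where 2.19% of all genes were higher and 1.61% lower by that much. The median difference was -0.35, against -0.03 for all genes, with 8 positive and 37 negative. The sum of 8 neutrophil and precursor markers was 14.57 on the WT and 12.41 on the Mbd2-/- T cell array, with all 8 detected on both. Its part in these values was not tested.

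Where a gene had further probes that could be tested, these pointed the same way in the cell type comparisons. All 30 further probes had the sign of the gene's brightest probe in cDC1s against monocytes, of which 24 passed, all 18 did in macrophages against monocytes, of which 13 passed, and 28 of 31 did in cDC1s against macrophages, of which 23 passed. For genotype, 12 of 14 further probes shared the sign in monocytes, of which 3 passed, 13 of 17 in macrophages, of which 1 passed, and 17 of 27 in cDC1s, of which none passed. No further probe passed in the opposite direction.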

How the data were processed

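The deposited table holds raw Illumina BeadChip intensities of 45281 probes with a detection p-value per array, as the authors exported them before normalization, together with 936 negative control spots. According to the deposited record the submitters used lumi and limma, with versions not given in the sources used here. A further 3 columns of array values match no sample and were not used. Intensities of the 25 colon arrays were corrected by normexp from the detection p-values (offset 16), log2 transformed and quantile normalized in limma 3.58.1 (R 4.3.3, data.table, version 1.17.8). The steps were tested on simulated data. A linear model of 6 groups was fitted, with cell type contrasts averaging the genotypes and moderated, two-sided tests. P-values were adjusted by Benjamini-Hochberg over all probes tested in a comparison, several of the same symbol included, and passed under 0.05. Counts, shares and medians over all genes then take a single probe for each symbol. A probe was tested if the arrays of the comparison with a detection p under 0.05 were no fewer than its smallest group. The number of arrays limits the precision. T cells entered a separate normalization of all 27 arrays, with no test.

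The genes, lists and tests were chosen with earlier results of these data known. Values on every array are given for genes picked as representatives, for genes that passed for genotype, and for the gene with the smallest p in each role group and direction of a comparison. Nothing in the labels says that replicates shared no mice, so p-values measure the spread between these arrays. Alternatives changed the background correction, normalization, filter, threshold, weights, blocks, probes and arrays. Chips, which hold 6 arrays, are not named, so blocks followed successive sets of 6 columns.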

Additional observations from a re-analysis of the deposited data

Results flagged for a closer look

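Single arrays stood apart from the rest of their group in 4 of the 94 sets of 5 values examined, each of 1 gene in 1 group, and chance gives about 1 in 20. The sets reuse the same arrays and are not independent. Aurka was 7.04 on WT monocyte array 4, where the nearest other array was 6.72. Espl1 was 7.66 on Mbd2-/- monocyte array 6, with the nearest at 7.47. Mcm5 was 7.91 on Mbd2-/- monocyte array 9, with the nearest at 7.56. Mki67 was 7.80 on WT macrophage array 12, with the nearest at 8.49.

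The genotype effect differed between cDC1s and macrophages, by a test of the difference itself in limma, for 6 genes. The difference of the log2 effects, cDC1s less macrophages, was 2.02 for Rrm2, 0.89 for Rrm1, 0.89 for Ube2c, 0.60 for Cdt1, -1.03 for Mki67 and -1.56 for Top2a. Without WT cDC1 array 23 the difference for Rrm2 fell to 1.22, an estimate that rests on 1 WT cDC1 array. With median scaling Rrm2 did not pass (1.28, adjusted p = 0.0557). The difference for Top2a was -1.77 to -1.35 without any 1 array. With array weights Top2a did not pass (-1.36, adjusted p = 0.150). Rrm1, Ube2c and Mki67 each did not pass without array 11, 12, 18, 19, 20 or 30, among others. Cdt1 did not pass without array 12, 19, 20 or 28, and without array 23, which leaves 1 WT cDC1 array, its difference was 0.54. Genotype and column block cannot be told apart in cDC1s.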

How the results depend on the processing

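The order of cell types was the steadier result. In all 31 other settings the number of genes that passed in cDC1s against monocytes (41) and against macrophages (38) stayed within 1.5 times, at 28 to 42 and 26 to 39, and in 35 of 36 in macrophages against monocytes (32), which became 11 where a log2 difference of at least 1 was also required. Leaving out 1 array gave 37 to 42, 34 to 39 and 31 to 34. Signs turned for Cenpm in macrophages against monocytes with WT arrays only (0.30), Rrm2 in the same comparison with Mbd2-/- arrays only (-0.043), and Cdt1 in cDC1s against macrophages with Mbd2-/- arrays only (0.032) or within column blocks (0.13, chosen after seeing the data). Another background correction from the negative control spots was also chosen after seeing the data.

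Counts for genotype moved by over 1.5 times in 4 of 26 other settings in monocytes, 12 of 26 in macrophages and 9 of 19 in cDC1s. In monocytes 4 became 1 with median scaling, 2 with a log2 difference of at least 1, 8 with array weights and 0 within column block 2. In macrophages 4 became 1 with median scaling, 2 with no filter, 1 at an adjusted p under 0.01, 0 with a log2 difference of at least 1, 1 with the cell type alone, and 0 within column block 3 and 0 within column block 4. In cDC1s 4 became 7 with no background correction, 2 with median scaling, 1 with cyclic loess, 1 at an adjusted p under 0.01, 1 with a log2 difference of at least 1, 0 with array weights and 0 with the cell type alone. Median scaling moved the median of all genes to -0.28 in monocytes and -0.36 in cDC1s, and that of the cell cycle genes to -0.11 and -0.37. For the difference of genotype effects, cDC1s less macrophages, 6 became 2 with median scaling, 2 with cyclic loess, 3 with no filter, 1 at an adjusted p under 0.01, 3 with a log2 difference of at least 1 and 1 with array weights. For cDC1s less monocytes 0 became 1 with a strict filter, and for macrophages less monocytes 0 became 1 with array weights. The cause of these shifts was not tested.

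Leaving out 1 array gave 3 to 4 in monocytes, 1 to 5 in macrophages and 1 to 12 in cDC1s, and 0 to 1, 0 to 7 and 2 to 13 for the 3 differences of effects. The arrays that moved a count by over 1.5 times were 12, 14, 18 and 19 (2 each) and 20 (1) in macrophages and 26 (12) and 30 (1) in cDC1s. For cDC1s less macrophages they were 12, 19, 20 and 23 (2 each), 28 and 30 (3 each) and 26 (13), for cDC1s less monocytes 23 (2), 26 (7), 27 (1) and 28 (1), and for macrophages less monocytes 4 (1) and 6 (1). Every label number belongs to 1 array, so no numbers are shared between groups. With monocyte and macrophage arrays whose numbers differ by 10 as a random block (correlation 0.15), 33 genes passed in place of 32, and column blocks correlated at 0.03. Genes not detected above background, with only 2 WT cDC1 arrays and 1 T cell array per genotype, limit what these arrays can show.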
